A study of Mus musculus with 4 samples.

Results

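SNARE proteins are the membrane-anchored coils that pull a vesicle onto its target membrane, and the Sec1/Munc18 and Munc13 proteins are the factors that hold and hand over their syntaxin subunits. The family described here was chosen by gene symbol, as the mouse protein-coding genes named for syntaxins (Stx), syntaxin-binding proteins (Stxbp), VAMPs, the SNAP-25 family, Vti1, Gosr, Bet1, Ykt6, Sec22 and Unc13. It has 46 members among the 49315 genes of the count table, of which 43 had enough reads to be tested. No measured value entered the symbol rule, but the family was put forward with results of this same contrast known. The fold changes and calls of its members are therefore given as a description, with no p-value, and nothing is drawn from their counts.

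RNA with poly(A) tails was sequenced from bone marrow-derived macrophages, which grow out of mouse marrow progenitors in culture. All 4 libraries come from Lyz2Cre+ cells, in which Cre recombinase is carried at the lysozyme 2 locus of myeloid cells. The 2 M1 libraries were exposed to bacterial lipopolysaccharide (LPS) at 100 ng/ml plus interferon gamma at 50 ng/ml. The 2 M2 libraries received the cytokines IL-4 and IL-13, each at 10 ng/ml. Both treatments began at day 7 of culture, in serum-free medium, and ran for 24 hours. The labels mention an arm with the EGFR inhibitor erlotinib and do not say whether these 4 cultures received it. Whether the replicates are separate animals or separate cultures is not stated either, so the spread between libraries may be technical. No unpolarized library was analysed here, so every difference below is M1 against M2 and shows no movement from rest.

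Fusion needs 4 SNARE helices, Qa, Qb, Qc and R, in a bundle. Syntaxins supply Qa helices, SNAP-25 relatives supply Qb and Qc together, and VAMPs, Ykt6 and Sec22 proteins supply R helices. In activated mouse macrophages, newly made TNF is known to leave the trans-Golgi network through Stx6, Stx7 and Vti1b, to reach recycling endosomes that carry Vamp3, and to be released at the surface through Stx4 and Snap23. Stx11, Stxbp2 (Munc18-2) and Unc13d (Munc13-4) serve cytotoxic granule release, and in humans each is mutated in a form of familial haemophagocytic lymphohistiocytosis. The family's working name fits only part of it. Unc13 proteins are Munc13 and not Munc18 proteins, while Stxbp4 (Synip), Stxbp5 (tomosyn) and Stxbp6 (amisyn) bind syntaxins without being Sec1/Munc18 proteins.

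The 250 bases before the RefSeq start are shown for 3 syntaxins that differ strongly between the groups, 2 higher in M1 (Stx11 and Stx2) and 1 lower in M1 (Stx1a). They read 5′ to 3′ on the gene's strand, with the GC box GGGCGG, on either strand, in capitals.
Stx11, chr10:12964260-12964509, minus strand: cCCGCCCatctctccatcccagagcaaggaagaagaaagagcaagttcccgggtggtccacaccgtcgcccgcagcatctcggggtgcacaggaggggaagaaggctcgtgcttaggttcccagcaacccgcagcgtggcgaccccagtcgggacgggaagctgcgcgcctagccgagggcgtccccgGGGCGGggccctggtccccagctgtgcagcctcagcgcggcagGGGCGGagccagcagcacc
Stx2, chr5:129008573-129008822, minus strand: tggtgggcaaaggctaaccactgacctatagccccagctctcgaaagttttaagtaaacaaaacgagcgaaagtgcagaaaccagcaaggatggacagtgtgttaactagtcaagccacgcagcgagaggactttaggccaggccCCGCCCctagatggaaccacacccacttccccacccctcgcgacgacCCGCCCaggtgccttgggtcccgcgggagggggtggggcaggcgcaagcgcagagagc
Stx1a, chr5:135023232-135023481, plus strand: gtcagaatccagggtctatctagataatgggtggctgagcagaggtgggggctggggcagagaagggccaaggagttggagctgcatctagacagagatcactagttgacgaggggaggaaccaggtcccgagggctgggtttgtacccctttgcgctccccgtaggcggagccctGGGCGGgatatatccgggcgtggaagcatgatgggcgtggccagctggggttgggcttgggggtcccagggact
Coordinates and letters are those of RefSeq on GRCm38.p6, and for Stx2, which has a second RefSeq start, the window nearest the annotated gene edge is printed. Their GC content was 70% for Stx11, 60% for Stx2 and 62% for Stx1a, with 21, 14 and 9 CpG dinucleotides, against medians of 52.4% and 6 over 32817 windows of all genes. RefSeq windows were matched for 39 of the 46 members, 45 windows in all, since 6 members have more than 1. The GC box lay in 27 of these 45 windows (60%), against 32.7% of all windows. The CCAAT box (CCAAT) lay in 19 of the 45, against 33.8% of all windows, and the E-box (CACGTG) in 5, against 6.02%.

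Motifs of factors that act downstream of the 2 treatments were looked for in the same 45 windows, on both strands. An ISRE-like motif, for interferon-regulated factors, occurred in 3 windows (Gosr2, Unc13a and Vamp1), or 6.67% of the 45, against 2.97% of all windows. The GAS letters TTCNNNGAA occurred in 4 windows or 8.89% (Bet1, Sec22a, Stx17 and Vamp8), against 7.01%. The wider spacing of these letters preferred by STAT6, with 4 free bases, occurred in 2 windows or 4.44% (Stx8 and Stxbp2), against 5.85%. A kappaB-like motif occurred in 0 of the 45, against 1.09%. AP-1 letters (TGANTCA), CRE letters (TGACGTCA) and a TATA box (TATAAA) each lay in 2 windows, against 6.75%, 1.55% and 12.4% of all windows. The AP-1 windows both belong to Gosr2, and the Stx2 window with the TATA box is the one not printed. These matches describe letters in a 250-base window and not binding sites.

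Library totals ran from 26806370 to 39506242 counts, and TMM scaling gave M1 factors of 0.846 and 0.866 and an M2 factor of 1.17 in both libraries. Because the factors differ by group, scaling by total counts instead lowers the median log2 fold change of all genes by 0.448, and members that change call or direction for this reason are named below. All 8 macrophage markers were detected, with summed levels of 5210 and 4994 CPM in M1 and 4891 and 4781 CPM in M2. Lyz2 itself stood at only 25.3 and 27.3 CPM in M1 and 6.51 and 6.88 CPM in M2. Stromal markers summed to 121 and 113 CPM in M1 and 1140 and 1164 CPM in M2. Of the 5, 4 were called lower in M1, while Dcn was called higher (17.5 and 12.5 CPM in M1, 6.1 and 7.66 CPM in M2). Mast cell and basophil markers summed to 7.28 and 6.71 CPM in M1 and 0.702 and 0.955 CPM in M2. Markers of neutrophils and their precursors summed to 1.27 and 1.75 CPM in M1 and 6.19 and 7.58 CPM in M2. Neuronal and neuroendocrine markers summed to 10.5 and 10.4 CPM in M1 and 17.4 and 18.3 CPM in M2, with Chga at 0 in all 4 libraries. Dendritic markers summed to 32.8 and 33.6 CPM in M1 and 2.52 and 2.11 CPM in M2, mostly from Xcr1. The part of these cells in any result below was not tested, and in bulk samples fewer cells of a type and less RNA per cell cannot be told apart.

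Of the 46 members, 26 were called higher in M1, 14 were called lower, 3 were not called and 3 were not tested. Calls are adjusted p under 0.05 in edgeR's quasi-likelihood test over all 14656 tested genes. The background was high, with 77.2% of all tested genes called, 37.5% higher in M1 and 39.7% lower. At least 2-fold apart were 8 members higher in M1 and 6 lower, where 18.2% and 22.5% of all tested genes passed the same limit. Values of the 2 groups did not overlap for 41 of the 43 tested members, where they did not overlap for 88.5% of all tested genes. The median log2 fold change, M1 over M2, was 0.36 for the 43 tested members and -0.04 for all tested genes, and the median size was 0.69 against 0.76. With total-count scaling 14 members were called higher and 20 lower, so the number of higher calls depends on the scaling. That scaling shifts all genes alike and called 11912 of all tested genes. Their split by direction is not given, so the members were not set against all genes under it.

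The Qa syntaxins held the largest upward differences. Of 13, 10 were called higher in M1, 2 lower and 1 (Stx19) was not tested, with a median log2 fold change of 0.71. With total-count scaling 6 were higher and 3 lower. Stx11, a lipid-anchored syntaxin of immune cells, had 106 and 104 CPM in M1 libraries and 4.31 and 4.93 CPM in M2 libraries. The M1 libraries were close to each other and far above both M2 libraries, a 22.5-fold difference (log2 4.49 ± 0.08, SE). Stx2 (epimorphin), a plasma membrane syntaxin, had 389 and 368 CPM in M1 and 66.3 and 60.2 CPM in M2. It was 5.99-fold higher in M1 (log2 2.58 ± 0.07) and had the highest CPM of all members in M1. Stx3, which works in regulated secretion at the cell surface, had 127 and 101 CPM in M1 and 42.7 and 40.5 CPM in M2, a log2 difference of 1.46 ± 0.10. Both M1 libraries exceeded both M2 libraries, although M1 replicate 2 stood at -0.32 on the log2 scale relative to M1 replicate 1.

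Stx1a, a plasma membrane syntaxin of neurons, was scarce and lower in M1. It had 0.309 and 0.285 CPM in M1, from 9 and 7 counts, against 1.53 and 1.45 CPM in M2, from 48 and 67 counts (log2 -2.31 ± 0.34). It passed the filter on low counts through its M2 level alone, so a difference was a condition of its being tested.

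Stx4a, the surface syntaxin of TNF release, was the most abundant member per exon length, at 85.0 CPM per kb in M1 and 65.6 CPM per kb in M2. Its libraries had 200 and 201 CPM in M1 and 156 and 154 CPM in M2, a log2 difference of 0.37 ± 0.06 that becomes -0.07 and loses its call with total-count scaling. Stx7, of late endosomes, had 206 and 192 CPM in M1 and 157 and 164 CPM in M2. Its log2 difference of 0.31 likewise turns to -0.14, and is then called lower. Stx12 of recycling endosomes (log2 0.85) and Stx16 of the trans-Golgi network (log2 0.86) were called higher with either scaling. Stx5a of the Golgi (0.56) and Stx18 of the endoplasmic reticulum (0.48) were higher with TMM but not called with total-count scaling. Of the exon bases of Stx18, 12.5% are shared with Nsg1 on the opposite strand. The library kit does not mark strand, so reads from such shared bases cannot be assigned to either gene. Stx17, the autophagosome syntaxin, differed the other way, with 20.9 and 20.1 CPM in M1 and 32.9 and 33.7 CPM in M2 (log2 -0.70 ± 0.07).

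Shares within the Qa class do not depend on scaling between libraries, because each is taken within a library from counts per exon length. Stx2 made up 22.3% and 22.0% of Qa syntaxin counts in M1 and 7.45% and 6.80% in M2. Stx11 made up 6.61% and 6.78% in M1 and 0.527% and 0.606% in M2. Stx4a made up 22.3% and 23.3% in M1 but 33.9% and 33.8% in M2, and Stx7 12.1% and 11.7% in M1 but 18.1% and 19.0% in M2. Stx2 transcripts were thus about level with those of Stx4a in M1, at ratios of 1.00 and 0.943, whereas in M2 the ratios were 0.220 and 0.201. No test was run on these shares, since 2 libraries against 2 cannot reach significance in an exact permutation test. Each difference named here was larger than the spread between replicates.

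**Figure D1:**
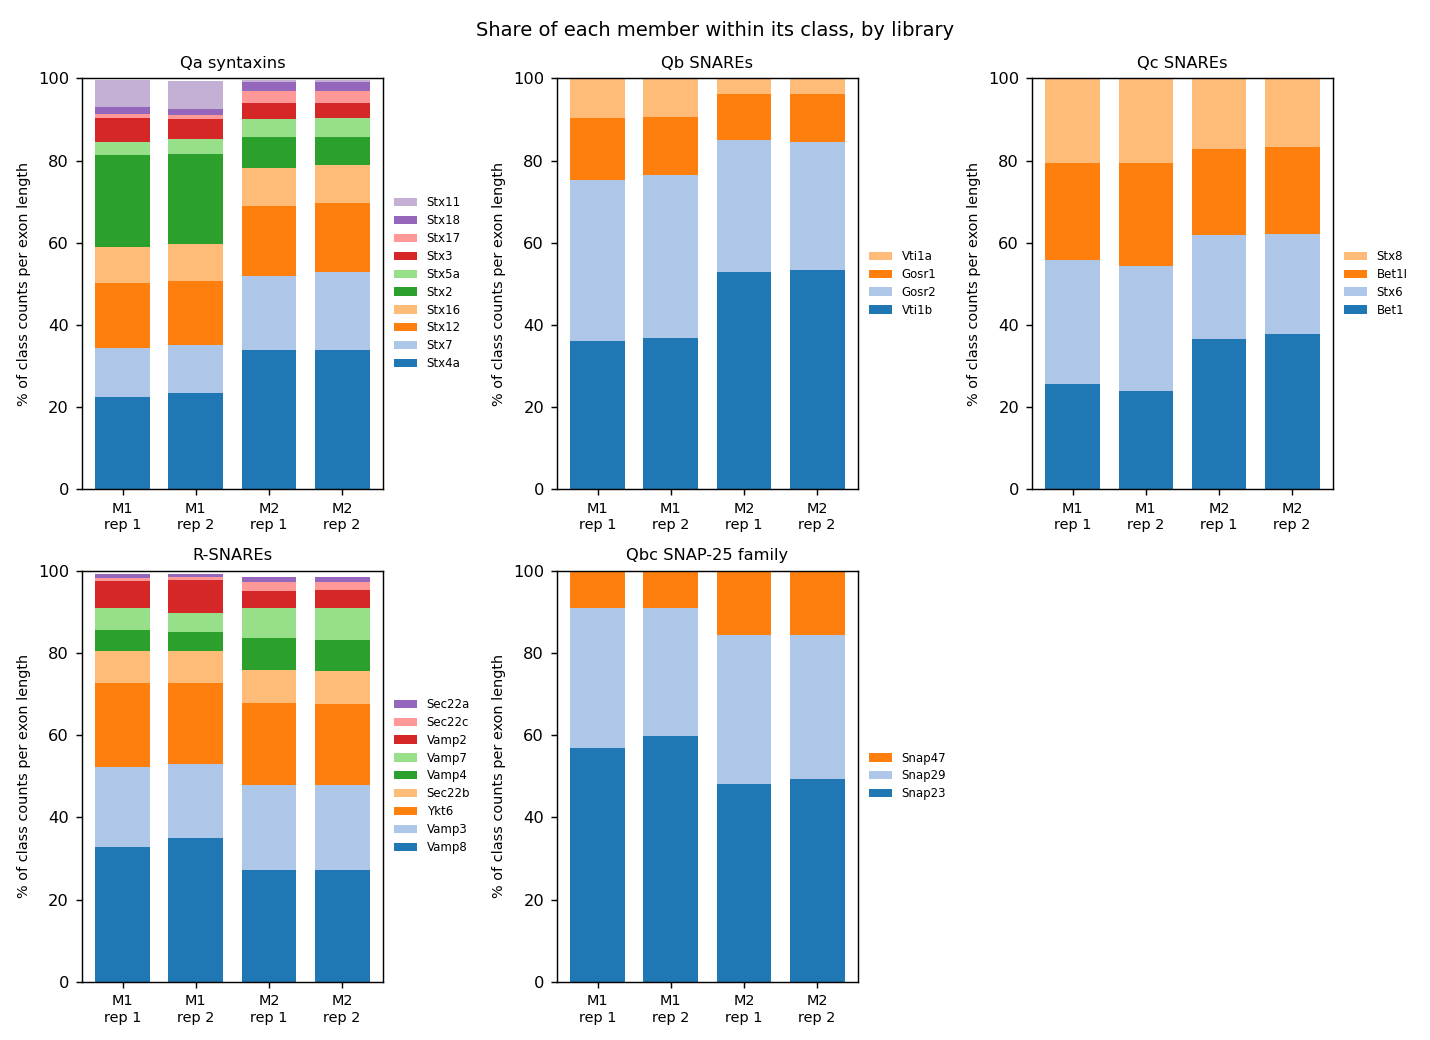
Share of each member in the counts per exon length of its class, for 5 classes, in percent, with 1 stacked bar per library, both M1 libraries left of both M2 libraries; members under 1% in all libraries are not drawn. Stx2 and Stx11 occupy more of the Qa bars in M1, and Vti1a more of the Qb bars, while Stx4a and Vti1b occupy less.

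Among Qb SNAREs, 3 of 4 were called higher in M1 and 1 lower, with either scaling. Vti1a, the trans-Golgi form, had 131 and 131 CPM in M1 and 43.4 and 43.7 CPM in M2, a 3.01-fold difference (log2 1.59 ± 0.06). Its close relative Vti1b, the endosomal form used in TNF trafficking, had 65.0 and 66.3 CPM in M1 and 78.7 and 80.0 CPM in M2 (log2 -0.27 ± 0.06). The ratio of Vti1a to Vti1b per exon length was 0.265 and 0.259 in M1 and 0.0723 and 0.0717 in M2. Vti1a has an exon union of 12304 bases and a longest transcript of 4175, against 1612 and 1490 for Vti1b. The level of this ratio therefore depends on the length used, but its fold between M1 and M2 does not. Vti1b shares 285 exon bases, 17.7% of its exon length, with Arg2 on the opposite strand, which had 358 and 284 counts in M1 and 26 and 21 in M2. The part of these shared bases in the Vti1b values was not tested. The Golgi SNAREs Gosr1 and Gosr2 were 0.63 and 0.58 higher on the log2 scale.

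Among Qc SNAREs, Stx8, Stx6 and Bet1l were 0.45, 0.44 and 0.36 higher in M1 on the log2 scale and Bet1 was lower. Stx6, of the trans-Golgi network, had 83.5 and 88.5 CPM in M1 and 63.4 and 63.2 CPM in M2. None of the 3 stayed called with total-count scaling, where their log2 fold changes were -0.00, -0.01 and -0.09. Bet1, which acts between endoplasmic reticulum and Golgi, had 25.1 and 24.3 CPM in M1 and 32.1 and 34.2 CPM in M2 (log2 -0.43 ± 0.07). It made up 25.7% and 23.9% of the Qc class in M1 and 36.5% and 37.7% in M2. Bet1l shares 9.87% of its exon length with Ric8a on the opposite strand.

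Of the SNAP-25 family, Snap23, the form used outside neurons, had 141 and 132 CPM in M1 and 111 and 111 CPM in M2 (log2 0.30 ± 0.06). With total-count scaling it was called lower at -0.15. Snap29, which pairs with Stx17 on autophagosomes, was not called, with 67.5 and 55.3 CPM in M1 and 67.4 and 63.5 CPM in M2. The groups overlapped, and its log2 fold change of -0.09 became -0.24 without M1 replicate 1. Under total-count scaling Snap29 was called lower, at -0.54. Snap47 had 13.9 and 12.3 CPM in M1 and 22.0 and 21.3 CPM in M2 (log2 -0.72 ± 0.09), and 11.6% of its exon length is shared with Jmjd4 on the opposite strand. Snap25, the neuronal form, had 3 and 1 counts in M1 and 2 and 2 in M2 and was not tested. Snap23 made up 56.9% and 59.8% of the class in M1 and 48.2% and 49.3% in M2.

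The 11 R-SNAREs were mixed, with 5 called higher in M1, 4 lower and 2 not called, and with 2 higher and 7 lower under total-count scaling. Vamp2 (synaptobrevin), best known from regulated exocytosis, had 62.8 and 75.9 CPM in M1 and 30.0 and 32.9 CPM in M2, a 2.20-fold difference (log2 1.14 ± 0.09). Vamp8 (endobrevin), of late endosomes and secretory granules, was the most abundant R-SNARE per exon length, at 83.4 CPM per kb in M1 and 51.6 CPM per kb in M2. It had 187 and 198 CPM in M1 and 116 and 122 CPM in M2 (log2 0.69 ± 0.06). Both kept their calls under total-count scaling. Vamp3 (cellubrevin), of recycling endosomes, had 138 and 129 CPM in M1 and 110 and 116 CPM in M2, and its log2 difference of 0.24 turned to -0.21 with total-count scaling. It was not called when M2 replicate 1 was left out, at 0.18.

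Ykt6, a lipid-anchored SNARE of the Golgi, and Sec22b, which acts between endoplasmic reticulum and Golgi, were 0.39 and 0.32 higher in M1, and both turned negative with total-count scaling. Sec22c, a relative of Sec22b, had 10.1 and 8.83 CPM in M1 and 23.4 and 23.1 CPM in M2, a log2 difference of -1.29 ± 0.09. Vamp5 (myobrevin), a form first described in muscle, had 2.33 and 2.24 CPM in M1 and 4.92 and 4.52 CPM in M2 (log2 -1.04 ± 0.16). Vamp4 and Vamp7, of the trans-Golgi network and of lysosomes, had log2 fold changes of -0.26 and -0.22. Vamp7 lost its call without M1 replicate 2 (-0.15), without M2 replicate 2 (-0.16) and in DESeq2. Sec22a (-0.19) and Vamp1 (-0.22) were not called, and Sec22a was called lower at -0.31 without M1 replicate 1. Under total-count scaling Sec22a and Vamp1 were both called lower, at -0.64 and -0.67. The ratio of Vamp8 to Vamp7 per exon length was 6.28 and 7.45 in M1 and 3.73 and 3.53 in M2.

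Among the Munc18 genes, Stxbp3 and Stxbp2 were called higher in M1. Stxbp3 (Munc18c), the partner of Stx4, had 282 and 227 CPM in M1 and 147 and 147 CPM in M2 (log2 0.80 ± 0.09). Stxbp2, the partner of Stx11 and Stx3, had 205 and 210 CPM in M1 and 152 and 156 CPM in M2, and its log2 difference of 0.43 ± 0.06 became -0.02 with total-count scaling. The ratio of Stxbp3 to Stxbp2 per exon length was 1.07 and 0.844 in M1 and 0.750 and 0.733 in M2. Stxbp3 has an exon union of 5340 bases and a longest transcript of 2419, against 4159 and 2908 for Stxbp2. Which of these genes is the more abundant in M2 therefore depends on the length used.

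The 3 other syntaxin-binding genes were all lower in M1, with either scaling. Stxbp5 (tomosyn), an inhibitor that occupies syntaxins in place of a VAMP, had 79.1 and 77.4 CPM in M1 and 131 and 127 CPM in M2 (log2 -0.72 ± 0.06). Stxbp4 (Synip), a ligand of Stx4, had 2.51 and 1.95 CPM in M1 and 6.38 and 5.82 CPM in M2 (log2 -1.43 ± 0.16). Stxbp6 (amisyn), which also carries a VAMP-like coil, had 5 and 1 counts in M1 against 43 and 76 counts in M2. That corresponds to 0.172 and 0.0407 CPM in M1 and 1.37 and 1.65 CPM in M2, a fitted log2 fold change of -3.73 ± 0.46. It was -5.11 without M1 replicate 1 and -3.13 without M1 replicate 2. Like Stx1a, it passed the filter through M2 alone.

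Munc13 genes open syntaxins for SNARE assembly. Unc13d had 99.0 and 91.2 CPM in M1 and 33.9 and 34.0 CPM in M2, a 2.80-fold difference (log2 1.48 ± 0.07). It supplied 99.0% and 98.7% of Munc13 counts per exon length in M1 and 93.2% and 93.3% in M2. Unc13a, of synapses, had 2.44 and 3.05 CPM in M1 and 6.29 and 6.10 CPM in M2 (log2 -1.18 ± 0.15). It shares 495 exon bases with Colgalt1 on the opposite strand, which had 1532 and 1461 counts in M1 and 11437 and 16962 in M2. Unc13b had 0.515 and 0.366 CPM in M1 and 0.702 and 0.977 CPM in M2, and lost its call in DESeq2, without M1 replicate 2 and without M2 replicate 2. Unc13c had 0 counts in all 4 libraries, where 3 counts would be 0.0651 to 0.122 CPM.

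The cytotoxic granule genes Stx11 and Unc13d, named above, were at least 2-fold higher in M1 and Stxbp2 was 1.34-fold higher. The difference of Stxbp2 became -0.02 on the log2 scale with total-count scaling. Of the genes in the TNF route, Stx4a, Stx6, Stx7, Snap23 and Vamp3 had log2 differences between 0.24 and 0.44, and Vti1b was lower. Each of these positive differences turned negative with total-count scaling. With upper-quartile scaling, Stx7 (0.12), Snap23 (0.11) and Vamp3 (0.05) were not called. Grouped by compartment, plasma membrane SNAREs summed to 257 and 246 CPM per kb in M1 and 125 and 123 CPM per kb in M2. That was 26.6% and 26.3% of all members' counts per exon length in M1, against 19.8% and 19.1% in M2. SNAREs of endosomes, lysosomes and autophagosomes made up 27.8% and 28.2% in M1 and 33.1% and 33.3% in M2. Those of exocytic and recycling vesicles made up 6.7% and 6.97% in M1 and 7.37% and 7.74% in M2. ER and Golgi SNAREs made up 17.1% and 17.4% in M1 and 19.7% and 19.8% in M2, and those of the trans-Golgi network 6.62% and 6.74% in M1 and 6.57% and 6.58% in M2. Within the plasma membrane group, Stx2 supplied 33.0% and 32.7% in M1 and 11.5% and 10.7% in M2, and Stx4a 32.9% and 34.6% in M1 and 52.5% and 53.2% in M2.

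Of 72 tested genes in 8 lists of accessory factors, 24 were called higher in M1, 31 lower and 17 were not called, with 11 higher and 49 lower under total-count scaling. Of all tested genes, 37.5% were called higher and 39.7% lower with TMM scaling, the background for each list below as well. Under total-count scaling the split of all tested genes by direction is not given. The total-count numbers, here and for each list below, were therefore not set against all genes. The median log2 fold change over the 8 lists was 0.03. The calcium sensors and Rab27 effectors held the widest differences, but many of them passed the filter on low counts through 1 group alone. These were Sytl3, Sytl2, Sytl4, Mlph, Syt3, Syt8, Syt12, Syt17 and Dysf, so a difference was a condition of their being tested. Syt7, a calcium sensor of lysosome exocytosis, had 25.9 and 25.3 CPM in M1 and 0.511 and 0.304 CPM in M2 (log2 6.03 ± 0.16). Sytl3, a synaptotagmin-like Rab27 effector, had 20.7 and 22.8 CPM in M1 and 0.160 and 0.0434 CPM in M2 (log2 7.85 ± 0.23), from 5 and 2 counts in M2. Its log2 value was 8.83 without M2 replicate 1 and 7.03 without M2 replicate 2. Of 10 synaptotagmins and ferlins 3 were higher and 7 lower, the lower ones including Dysf (log2 -2.96) and Syt13 (-2.26). Also among the lower ones, Syt3 was at -1.12 without M1 replicate 1 and -3.26 without M1 replicate 2. Syt12 was at -1.63 and -6.79 in the same order. Syt11 was 0.88 higher. Of the 6 tested Rab27 genes and effectors, Sytl3 was called higher, 4 lower and Rab27a was not called. The lower ones were Sytl2 (log2 -4.61, from 1 and 3 counts in M1), Sytl4 (0.172 and 0.122 CPM in M1, 0.543 and 0.651 CPM in M2), Rab27b (-1.15) and Mlph, which had 0 and 0 counts in M1 and 27 and 38 in M2. Sytl2 was at -3.92 without M1 replicate 1 and -5.66 without M1 replicate 2.

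Of the core disassembly factors, Nsf and Napa were not called and Napg was called higher in M1. Nsf, the ATPase that takes spent SNARE bundles apart, had 112 and 107 CPM in M1 and 107 and 112 CPM in M2. Its adaptor Napa (alpha-SNAP) had 135 and 145 CPM in M1 and 130 and 131 CPM in M2. Both were called lower with total-count scaling, and Napa was called higher at 0.15 without M1 replicate 1. Napg (gamma-SNAP) had 93.5 and 88.0 CPM in M1 and 48.5 and 49.3 CPM in M2 (log2 0.89 ± 0.06), a call kept with total-count scaling. Of the 8 tested priming and disassembly genes 4 were higher, among them Txlnb (log2 4.85) and Napb (1.20), and 1 was lower, Snapin (-0.49). Txlnb had 6 and 8 counts in M2 and passed the filter through M1 alone. Of 7 Sec1/Munc18 proteins and SNAREs outside the symbol rule, Scfd1 (0.50) and Bnip1 (0.43) were higher and Scfd2 (-0.89) and Vps33b (-0.30, not called without M2 replicate 2, at -0.24) lower, and under total-count scaling 0 were higher and 5 lower.

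Tethering complexes, which catch a vesicle before its SNAREs engage, were split. Of 9 exocyst genes 3 were higher, with Exoc6 (log2 0.53) and Exoc1 (0.44) furthest, and 3 lower, with Exoc4 (-0.94) and Exoc8 (-0.58) furthest. With total-count scaling 0 exocyst genes were higher and 7 lower. Of 7 HOPS and CORVET genes, the tethers of endosomes and lysosomes, Vps16 (0.65) was higher and 5 were lower, led by Vps18 (-0.97) and Vps8 (-0.74). Of 17 COG, GARP and ER-Golgi tethers 9 were higher, led by Vps54 (1.61) and Cog4 (0.76), and 4 lower, led by Cog5 (-0.84) and Cog7 (-0.59). That count became 2 higher and 9 lower under total-count scaling. Among 8 tested vesicle membrane proteins, Syngr2 (1.36) was higher and 5 were lower. Syngr1 had 2.40 and 1.99 CPM in M1 and 98.0 and 99.6 CPM in M2 (log2 -5.48), and Scamp5 had 8.99 and 8.50 CPM in M1 and 59.4 and 56.4 CPM in M2 (log2 -2.72).

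**Figure D2:**
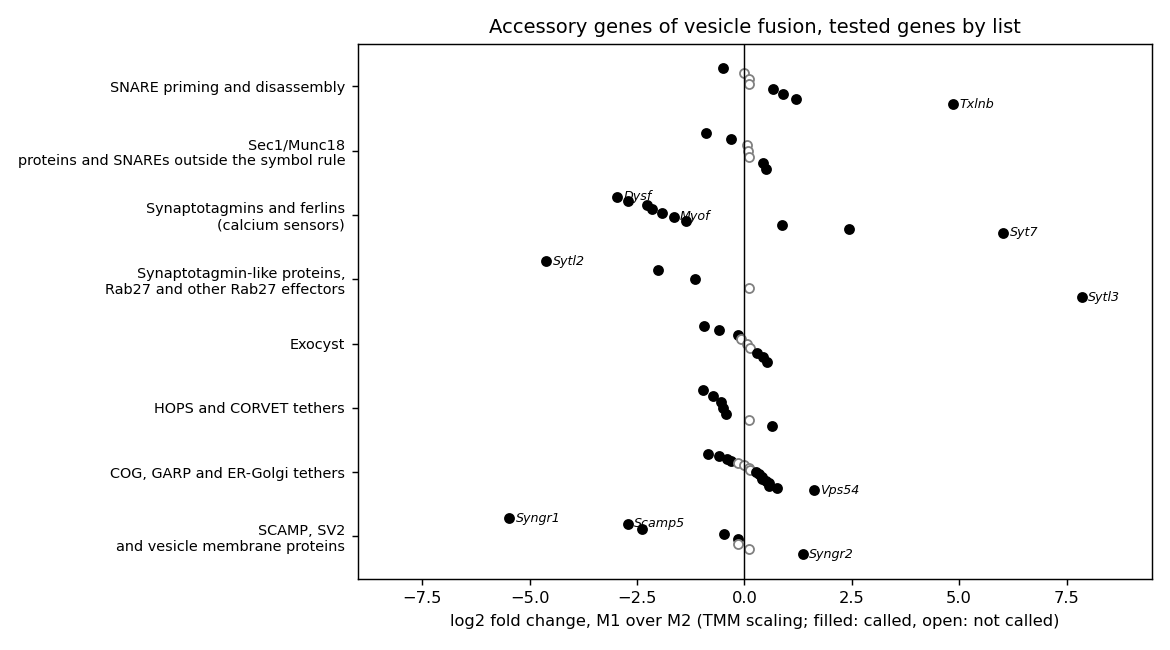
Log2 fold change, M1 over M2, with TMM scaling, of the tested accessory genes, 1 row per list, filled where called and open where not; Mlph, which had 0 counts in both M1 libraries, is not drawn. Tethers lie between -0.97 and 1.61, while Sytl3 and Syt7 lie far right and Syngr1 and Sytl2 far left.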

How the data were processed

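Poly(A) RNA of 4 libraries (M1, n = 2; M2, n = 2) was sequenced as paired reads with a kit that does not mark strand, per the labels' protocols. The authors deposited whole-number read counts per gene, not normalized. Per the submitters' processing notes the build was GRCm38, and STAR 2.5.2b, Trimmomatic 0.36, DESeq, DESeq2, featureCounts and Subread 1.5.2 were used, with roles not given. A deposited comparison table was not used.

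Gene IDs were matched to GENCODE vM21 symbols (49056 of 49315). All 4 libraries were fitted in edgeR 4.0.16 (R 4.3.3): filterByExpr (minimum count 10, minimum total 15), TMM, robust quasi-likelihood F test, two-sided, with Benjamini-Hochberg adjustment over 14656 genes. Fold changes are M1 over M2. SE is the log2 fold change over the square root of F. The common biological coefficient of variation was 0.0528. CPM is TMM-normalized, and levels between genes are per kb of exon union. The fit was tested on simulated data first. Replicate numbers follow accession order and pair nothing. Members, classes, accessory and marker lists and motifs were chosen with earlier results of these data known. Named are the best-studied members, the 15 with the largest called change and at least 1 CPM, the 5 most abundant per length, and up to 2 called genes each way per list; some of these are not reported here. Mlph, Nsf, Napa, Napg, Sytl4, Rab27a, Xcr1 and Dcn were named after their values were seen. Alternatives were RLE, upper-quartile and total-count scaling, 2 other filters, DESeq2 1.42.0, limma-voom (limma 3.58.1), other lengths, and each library left out. Values of single accessory genes with a library left out were chosen after seeing the data.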

Additional observations from a re-analysis of the deposited data

How the results depend on the processing

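Of the 43 tested members, 26 kept call and direction under all 11 settings run, 34 under all but total-count scaling, and 38 under all but total-count and upper-quartile scaling. RLE scaling, no filter and limma-voom changed no member's call, nor did a filter of 5 CPM, which left 40. Total-count scaling called 14 members higher in M1, and 11 accessory genes higher and 49 lower. It turned 10 members negative, Bet1l (-0.09), Sec22b (-0.13), Snap23 (-0.15), Stx4a (-0.07), Stx6 (-0.01), Stx7 (-0.14), Stx8 (-0.00), Stxbp2 (-0.02), Vamp3 (-0.21) and Ykt6 (-0.06); by construction it shifts all genes alike. Leaving out each library in turn gave 25 to 26 members higher and 12 to 16 lower, 23 to 27 accessory genes higher and 26 to 32 lower, and 10167 to 11525 genes called in all.

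Class shares (M1 minus M2, percentage points) kept their sign under other lengths. With the longest transcript and with no length correction they were 16.7 and 17.2 for Stx2 (15.0 as reported), and 4.40 and 6.61 for Stx11 (6.13). They were -12.6 and -8.04 for Stx4a (-11.0), 13.1 and 15.5 for Vti1a (5.73), and 4.17 and 4.10 for Vamp2 (3.06). No paired analysis was possible because the replicate numbers come from accession order only. With 2 libraries per group, members of a few counts (Stxbp6, Stx1a and Unc13b) have the least certain fold changes.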

Other observations

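Replicate differences among the members were wider in M1. In M1, replicate 2 was above replicate 1 for 12 of 43 tested members, with a median log2 difference of -0.06 against -0.01 for all tested genes, and 8 members differed by more than 0.25. In M2, replicate 2 was above for 25 of 43, with a median of 0.01, and 2 members differed by more than 0.25. How many of all tested genes differed that far is not given, so the wider M1 spread is not shown to be particular to the members. Among the 8 in M1 were the low-count members Stxbp6 (5 and 1 counts) and Unc13b (15 and 9 counts). The M1 replicates of Stx3, Stxbp3 and Snap29 differed by -0.32, -0.31 and -0.29 (replicate 2 over replicate 1) and those of Vamp2 by 0.27, while Vti1a, Stx16 and Stx4a stayed within 0.01.

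Myof, a ferlin of membrane repair, was the most abundant calcium-sensor gene, with 215 and 198 CPM in M1 and 670 and 629 CPM in M2 (log2 -1.65 ± 0.07). It was chosen after its values were seen.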
